A study of Homo sapiens with 2 samples.

Results

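The let-7 family is a set of microRNAs (miRNAs), short RNAs that guide Argonaute proteins to messenger RNAs and lower their output. The family was described here in small RNA libraries of an oral squamous cell carcinoma line. Its members were taken by name: the 5p products let-7a-5p, let-7b-5p, let-7c-5p, let-7d-5p, let-7e-5p, let-7f-5p, let-7g-5p, let-7i-5p and miR-98-5p, together with let-7d-3p from the other arm of the let-7d hairpin. These are 10 of the 1213 entries of the deposited table, of which 1178 carry miRNA names. All 10 had reads in both libraries and at least 50 normalized reads in the higher one, which is the floor used for counts over all miRNAs.

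The groups were UM-SCC6-M and UM-SCC6, with 1 library each. UM-SCC6 is the parental human oral carcinoma line. UM-SCC6-M was grown from its invasion front, the cells that crossed a matrix channel of a microfluidic chip, after 3 rounds of that isolation, and per the labels it invades strongly and has some mesenchymal traits. Whether the selected cells are clonal is not stated in the sources used here. With 1 library per group no difference below has a replicate check, no test between the conditions was made, and selection cannot be told apart from culture or library preparation. Recovered reads with a miRNA name came to 7699236 in UM-SCC6-M and to 8182682 in UM-SCC6. Levels are normalized reads, meaning reads after the authors' own scaling between libraries. Log2 ratios are UM-SCC6-M over UM-SCC6. Ranges in brackets are exact 95% intervals that cover counting error only. They take reads as independent, and reads copied by PCR are not independent molecules, so the intervals can be too narrow.

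let-7 was found in worms as a switch of developmental timing and is conserved in animals. In mammals its members repress transcripts of RAS genes, HMGA2, MYC and LIN28, and LIN28 proteins in turn bind let-7 precursors and block their maturation. The family is low in stem cells, rises with differentiation, and is often described as restraining tumor growth. Targeting rests mainly on the seed, bases 2 to 8 of the mature miRNA, which all 9 of the 5p members share. The mature sequences are shown because their likeness decides how reads can be told apart. They are from RefSeq (GRCh38.p14), written 5′ to 3′, with the seed in capitals.
let-7i-5p: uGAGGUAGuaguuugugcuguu
let-7f-5p: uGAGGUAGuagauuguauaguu
let-7g-5p: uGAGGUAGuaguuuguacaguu
let-7a-5p: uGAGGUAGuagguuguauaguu
let-7b-5p: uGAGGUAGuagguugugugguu
miR-98-5p: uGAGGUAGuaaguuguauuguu
let-7e-5p: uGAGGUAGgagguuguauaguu
let-7d-5p: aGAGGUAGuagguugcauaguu
let-7c-5p: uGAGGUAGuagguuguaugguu
let-7d-3p: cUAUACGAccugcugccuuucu

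All 10 names matched RefSeq, and every mature product was listed there as 22 bases long. How evenly library preparation captured the different sequences was not tested, so ranks, shares and spans between members are those of reads. The seed of the 5p members is GAGGUAG, whereas let-7d-3p carries UAUACGA in its place and so does not belong to the same targeting group. Counting positions from 1 at the 5′ end and taking let-7a-5p as the base of comparison, the 5p members differed at 8 of the 22 positions. let-7c-5p differed only by A19G, let-7b-5p by A17G and A19G, let-7e-5p by U9G and let-7f-5p by G12A. let-7d-5p carried U1A and U16C, and miR-98-5p carried G11A and A19U. let-7g-5p carried G12U and U18C, and let-7i-5p was the farthest from let-7a-5p, with G12U, A17G, U18C and A19U. Of the 36 pairs of 5p members 4 were 1 base apart, namely let-7a-5p with let-7c-5p, let-7e-5p and let-7f-5p, and let-7b-5p with let-7c-5p. How the authors assigned reads between such pairs is not given in the sources used here. RefSeq lists 11 mature human names with this seed, and the 9 members are those analysed here.

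The 5p members come from 12 hairpins. let-7a-5p has 3 of them and let-7f-5p has 2, so the locus behind a read of these products is not known, while each of the other 7 has 1. let-7i lies alone on chr12:62603686-62603769 (plus strand), in an intron of a long non-coding RNA gene. let-7g lies on chr3:52268278-52268361 (minus strand) in an intron of WDR82. The hairpins of let-7a-1, let-7f-1 and let-7d lie together on chromosome 9, between positions 94175957 and 94178920 of the plus strand. miR-98 (chrX:53556223-53556341) and let-7f-2 (chrX:53557192-53557274) are neighbours in an intron of the ubiquitin ligase gene HUWE1, on the minus strand. let-7a-3 and let-7b (chr22:46113686-46113768) lie in exons of their host transcript MIRLET7BHG. The remaining hairpins, those of let-7c, let-7a-2 and let-7e, each share a locus with hairpins of the miR-99/100 and miR-125 families and are taken up below.

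The family's 5p members took up 20.4% of all miRNA reads in UM-SCC6-M (20.34 to 20.39) and 18.6% in the parental library (18.56 to 18.61). The summed level was 187229 normalized reads in UM-SCC6-M and 202050 in the parental library, a log2 ratio of -0.11 (-0.113 to -0.107), so the share was higher in UM-SCC6-M while the scaled level was lower. Scaling to total reads moves every log2 ratio up by 0.24, and the sum then stood at 0.13, so no direction is given for it. Within the libraries the order of abundance was nearly the same. let-7i-5p was the second most abundant of all miRNAs in both, let-7f-5p ranked 3 in UM-SCC6-M and 4 in the parental library, and let-7g-5p ranked 4 and 5. let-7a-5p stood at rank 8 in UM-SCC6-M and at rank 14 in the parental library. At the other end let-7c-5p, the least abundant 5p member, stood at rank 75 in UM-SCC6-M and at rank 99 in the parental library.

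**Figure D1:**
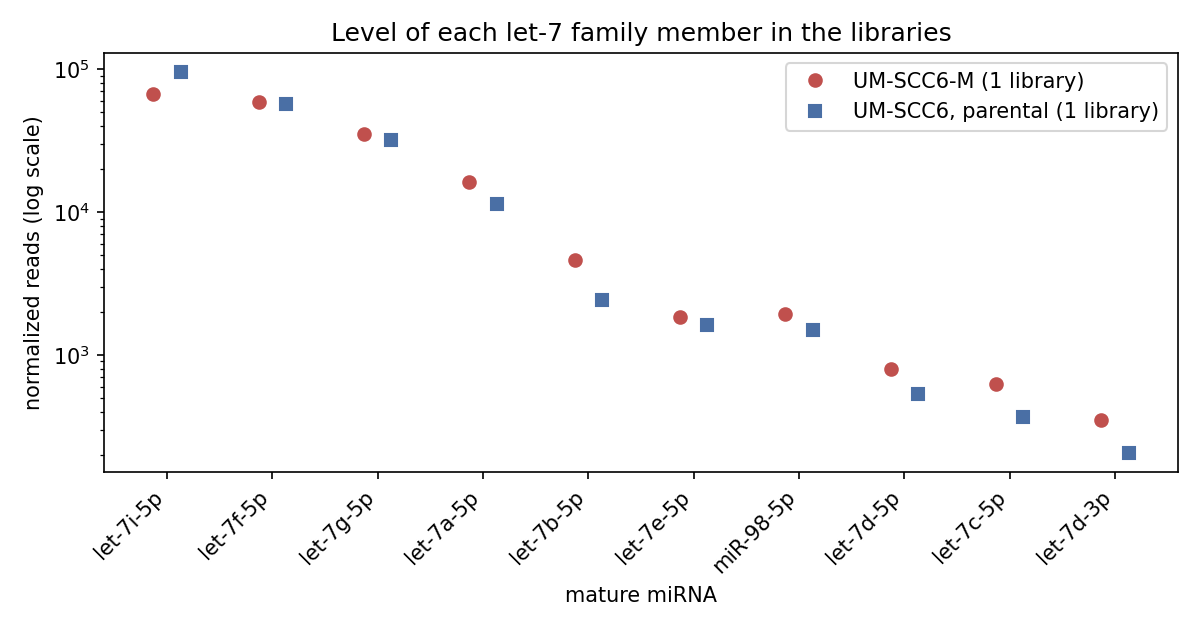
Level of each let-7 family member in normalized reads (log axis), with the UM-SCC6-M library as circles and the parental library as squares, ordered by the parental level with let-7d-3p last. let-7i-5p alone is lower in UM-SCC6-M, at 67073 against 95512 normalized reads, and the other 9 members are higher there.

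let-7i-5p, the most abundant member, was the one member with a lower scaled level in the invasive culture. It had 67073 normalized reads in UM-SCC6-M and 95512 in the parental library, on 561721 and 718759 reads. It was 1.42-fold lower in UM-SCC6-M (1.42 to 1.43), a log2 ratio of -0.51 that lay between -0.55 and -0.27 under the 4 other scalings tried. The other 9 members, let-7d-3p included, had positive log2 ratios, and none of these signs changed under those scalings. Only the trimmed mean of M-values moved ratios down, by -0.044, and the lowest of these ratios was 0.046, for let-7f-5p. The scalings were thus a weak check of the positive signs.

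let-7b-5p had the highest ratio of the members, with 4601 normalized reads in UM-SCC6-M and 2417 in the parental library. It was 1.90-fold higher in UM-SCC6-M (1.87 to 1.94), at a log2 ratio of 0.93. let-7c-5p had 626.2 normalized reads in UM-SCC6-M and 365.7 in the parental library and was 1.71-fold higher (1.63 to 1.79). These sister miRNAs differ by A17G alone, as seen in the sequences above, and reached the smaller size rule of 1.5-fold with intervals wholly beyond it. let-7b-5p and let-7i-5p, which share the seed, lay 2.71-fold apart in their ratios, with a counting standard error of 0.013 on the log2 scale. This gap between members does not depend on the scaling.

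let-7d-5p and let-7a-5p followed just inside 1.5-fold. let-7d-5p had 792.3 normalized reads in UM-SCC6-M and 536.5 in the parental library, a 1.48-fold higher level (1.42 to 1.54), so its interval crossed that rule. let-7a-5p, whose sequence is the family's common form, had 16206 normalized reads in UM-SCC6-M and 11319.5 in the parental library and was 1.43-fold higher (1.42 to 1.44). miR-98-5p, a let-7 in all but name, had 1932 normalized reads in UM-SCC6-M and 1493 in the parental library, 1.29-fold higher (1.26 to 1.33). It was the member in the middle of the 9, with a log2 ratio of 0.37.

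let-7e-5p, let-7g-5p and let-7f-5p lay closest to an even ratio. let-7e-5p had 1857 normalized reads in UM-SCC6-M and 1609 in the parental library, 1.15-fold higher (1.13 to 1.18). let-7g-5p had 35315 normalized reads in UM-SCC6-M and 31835 in the parental library, 1.11-fold higher (1.10 to 1.12). let-7f-5p had 58827 normalized reads in UM-SCC6-M and 56963 in the parental library, 1.03-fold higher (1.03 to 1.04), and its log2 ratio of 0.05 came down to 0.003 under the trimmed mean of M-values. These intervals exclude an even ratio because the counts are deep, and they leave out any spread between cultures.

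The 5p members were read by the fixed rule of size beside all miRNAs. None of the 9 reached 2-fold, against 20.1% of the 179 miRNAs at the floor. At 1.5-fold there were 2 members higher and 0 lower, where 43.6% of all miRNAs at the floor were 1.5-fold apart, 17.9% higher and 25.7% lower. Scaled to total reads, 5 members were 1.5-fold apart against 49.2% of all miRNAs at the floor, and 2 members, let-7b-5p and let-7c-5p, reached 2-fold against 23.5%. Above 0 were 8 of the 9 members, against 51.4% of all miRNAs at the floor. The median log2 ratio of the 5p members was 0.37 and that of all 179 miRNAs was 0.04. Members linked through pairs 1 base apart, namely let-7a-5p, let-7b-5p, let-7c-5p, let-7e-5p and let-7f-5p, were also summed before taking ratios. The median was then 0.18, which is the ratio of that sum. Not all pairs in it are 1 base apart, since let-7b-5p differs from let-7e-5p and from let-7f-5p by 3. Among the 70 miRNAs at 1000 or more normalized reads, to which 7 of the 9 members belong, the median was 0.02 and 50% lay above 0. In the authors' deposited table the q-values of the 10 members ran up to 2.02e-15, for let-7d-3p. They compare the 2 libraries and not the conditions.

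**Figure D2:**
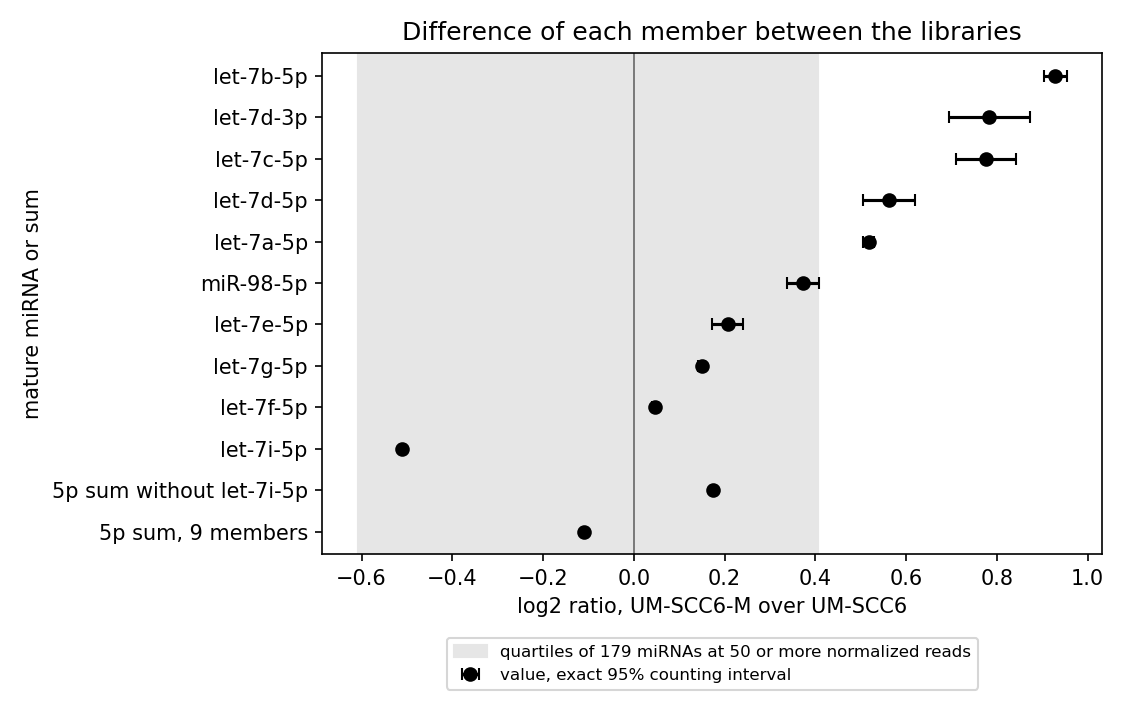
Log2 ratio of each member, and of the summed 5p members with and without let-7i-5p, UM-SCC6-M over UM-SCC6, with exact 95% counting intervals. The grey band runs between the quartiles (-0.61 and 0.41) of the 179 miRNAs at 50 or more normalized reads. let-7b-5p is highest at 0.93, let-7i-5p lowest at -0.51, and the sum moves to 0.17 once let-7i-5p is left out.

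The composition of the family differed between the libraries, in a way that no scaling can alter. let-7i-5p made up 35.8% of the family's 5p reads in UM-SCC6-M (35.7 to 35.9) and 47.3% in the parental library (47.2 to 47.4), a difference of -11.4 percentage points. Each of the other 8 members held a larger share in UM-SCC6-M. Shares add up to a fixed whole, so a smaller share of let-7i-5p has to be made up by other members. A member gains share wherever its log2 ratio lies above that of the sum (-0.11), so these gains restate the ratios above. let-7f-5p held 31.4% of the family in UM-SCC6-M and 28.2% in the parental library, let-7g-5p held 18.9% and 15.8%, and let-7a-5p held 8.66% and 5.60%, each in that order of libraries. let-7b-5p held 2.46% of the family in UM-SCC6-M and 1.20% in the parental library, a 2.05-fold larger share. The 5 least abundant members together had 9808 normalized reads in UM-SCC6-M and 6420.2 in the parental library, 1.53-fold higher (1.51 to 1.54).

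**Figure D3:**
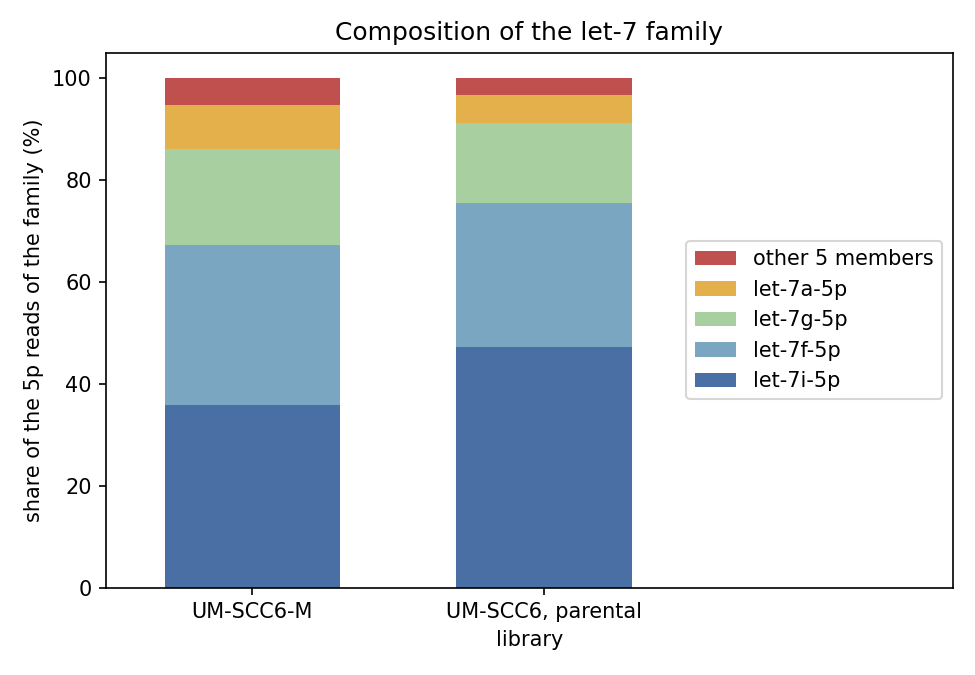
Share of the family's 5p reads (%) held by let-7i-5p, let-7f-5p, let-7g-5p, let-7a-5p and the other 5 members, in the UM-SCC6-M library on the left and the parental library on the right. let-7i-5p takes 35.8% in UM-SCC6-M and 47.3% in the parental library, and each of the other parts is larger in UM-SCC6-M.

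The 8 members other than let-7i-5p, each with a positive ratio, summed to 120156 normalized reads in UM-SCC6-M and 106538 in the parental library, a log2 ratio of 0.17 (0.169 to 0.178). The order of the members inside each library was otherwise stable to counting error, since no neighbours in that order had overlapping exact Poisson intervals. One place was exchanged. miR-98-5p had 16181 reads and let-7e-5p 15549 in UM-SCC6-M, whereas miR-98-5p had 11234 and let-7e-5p 12105 in the parental library. The span between the highest and the lowest 5p member was 107-fold in UM-SCC6-M and 261-fold in the parental library.

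Inside the family the more abundant members tended to have the lower ratios. The Spearman correlation between mean log2 level and log2 ratio was -0.75 over the 9 members, which share both libraries. Not every member followed this order. let-7a-5p (0.52) lay above the less abundant miR-98-5p (0.37) and let-7e-5p (0.21), and let-7b-5p (0.93) above the less abundant let-7c-5p (0.78) and let-7d-5p (0.56). Over the 70 miRNAs at 1000 or more normalized reads the correlation was -0.09. The 3 most abundant members, let-7i-5p, let-7f-5p and let-7g-5p, are also the 3 that carry G12U or G12A relative to let-7a-5p. This grouping was chosen after the values were seen and is given with no test, and of the 3 only let-7i-5p had a negative ratio. Summed, the 3 had 161215 normalized reads in UM-SCC6-M and 184311 in the parental library, a log2 ratio of -0.19 that turned to 0.05 under scaling to total reads. The other 6 summed to 26014 and 17740 normalized reads in the same order, 1.47-fold higher in UM-SCC6-M. Base and abundance cannot be told apart over 9 members.

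let-7d-3p, the listed product of the other arm, went with its sister arm. It had 351.7 normalized reads in UM-SCC6-M and 204.4 in the parental library and was 1.72-fold higher (1.62 to 1.83), on 2945 and 1538 reads. let-7d gave the most even arms of the hairpins compared, with 2.25 reads of let-7d-5p per read of let-7d-3p in UM-SCC6-M and 2.62 in the parental library. The log2 balance of 5p over 3p differed by -0.22 (UM-SCC6-M minus parental), with a counting standard error of 0.05.

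The 3p arms of this family are mostly discarded, and apart from let-7d-3p they were rare. All 11 of the 3p entries of let-7 and miR-98 had reads known in both libraries, and 2 of them, let-7d-3p and let-7a-3p, reached 50 normalized reads. The counting interval of the log2 ratio lay above 0 for 6 of the 11, below 0 for 1 and across 0 for 4. Of the 543 miRNAs with reads known in both libraries, 26.7% had an interval above 0 and 32.8% had one below 0. Under the trimmed mean of M-values 5 intervals lay above 0, and under scaling to total reads none lay below it. The share over all miRNAs under these scalings is not given, so these counts are not read as results about the 3p arms. let-7a-3p, made by the let-7a-1 and let-7a-3 hairpins, had 87.4 normalized reads in UM-SCC6-M and 64.8 in the parental library, 1.35-fold higher (1.20 to 1.51). let-7e-3p had 30.4 and 17.8 normalized reads in the same order and was 1.71-fold higher (1.38 to 2.12). let-7b-3p was 1.48-fold higher (1.08 to 2.05) on 107 UM-SCC6-M reads and 65 parental reads, and let-7f-2-3p was 1.61-fold higher on 52 and 29, with a log2 interval of 0.0059 to 1.40.

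let-7c-3p and let-7g-3p had the widest ratios of the 3p arms, on few reads and in opposite directions. let-7c-3p had 49 reads in UM-SCC6-M and 10 in the parental library, 4.40-fold higher (2.20 to 9.75). The log2 balance of 5p over 3p of let-7c differed by -1.36 between UM-SCC6-M and the parental library, with a counting standard error of 0.50. That of let-7e differed by -0.57, with a standard error of 0.15. The balance went the other way for let-7g (2.47, standard error 1.13), miR-98 (0.69), let-7b (0.36) and let-7a (0.09). Intervals of miR-98, let-7b and let-7a crossed 0, and let-7a-5p also comes from a hairpin that does not give let-7a-3p. let-7g-3p was the one product with an interval below 0, on 2 UM-SCC6-M reads and 9 parental reads, a ratio of 0.20 (0.02 to 0.96). let-7i-3p, the discarded arm of the most abundant member, had 63 UM-SCC6-M reads and 74 parental reads. Its log2 ratio was -0.38 (-0.89 to 0.12), beside -0.51 for let-7i-5p, and the arm balance differed by -0.12 with a counting standard error of 0.25. The 3p arms of miR-98 and let-7f-1 had 17 to 61 UM-SCC6-M reads and 19 to 64 parental reads, and intervals across 0.

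Hairpins of the let-7c, let-7a-2 and let-7e loci could be set beside their neighbours, because these loci hold paralogous trios. In each, 1 let-7 hairpin lies with 1 hairpin of the miR-99/100 family and 1 of the miR-125 family. The list of neighbours follows the loci, and it was made with earlier results of these data known. let-7c lies on chr21:16539828-16539911 (plus strand), close to miR-99a (chr21:16539089-16539169), both in an intron of MIR99AHG, with miR-125b-2 farther along the same gene. let-7a-2 lies on chr11:122146522-122146593 (minus strand) in an intron of MIR100HG, which also holds miR-100 and miR-125b-1. let-7e lies on chr19:51692786-51692864 (plus strand) in an intron of SPACA6, between miR-99b and miR-125a.

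The chromosome 21 and chromosome 11 trios went opposite ways. The 4 products particular to the chromosome 21 locus with a listed level were higher in UM-SCC6-M, with intervals above 0. A 5th, miR-99a-3p, was listed at 0 in both libraries, with a log2 fold change of -0.1543 in the authors' deposited table. Equal reads in both libraries give this value under the authors' scaling, as for miR-125a-3p with 197 reads in each (-0.1543). The number of miR-99a-3p reads is not known. Beside let-7c-5p and let-7c-3p, miR-99a-5p had 762.6 normalized reads in UM-SCC6-M and 527.6 in the parental library, at a log2 ratio of 0.53 (0.47 to 0.59). miR-125b-2-3p had 184 UM-SCC6-M reads and 64 parental reads, at 1.36 (0.95 to 1.80). On chromosome 11, miR-100-5p had 7107 normalized reads in UM-SCC6-M and 22784 in the parental library, at -1.68 (-1.69 to -1.67). miR-125b-1-3p had 47 UM-SCC6-M reads and 283 parental reads, at -2.73 (-3.22 to -2.29). let-7a-2-3p, the one let-7 product particular to that locus, had 6 UM-SCC6-M reads and 13 parental reads, at -1.21 (-2.95 to 0.23), too few to show a difference. miR-100-3p was listed at 0 in UM-SCC6-M and at 1.59 normalized reads in the parental library, with no deposited fold change, and is not counted.

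Some products are made by more than 1 locus. miR-125b-5p, which both trios make, had 148.7 normalized reads in UM-SCC6-M and 178.9 in the parental library, at -0.27 (-0.38 to -0.15), and at -0.025 when scaled to total reads. let-7a-5p, which the chromosome 11 locus makes together with those on chromosomes 9 and 22, was at 0.52 as given above, and let-7a-3p, which the chromosome 11 hairpin does not give, was at 0.43. How many let-7a-5p reads came from each hairpin was not tested. The chromosome 19 trio went both ways. let-7e-5p (0.21), let-7e-3p (0.77) and miR-125a-5p (0.38) were higher in UM-SCC6-M, and miR-99b-3p (-1.35) was lower. miR-99b-5p stood at -0.09, which turned to 0.15 under scaling to total reads, and miR-125a-3p had 197 reads in each library.

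**Figure D4:**
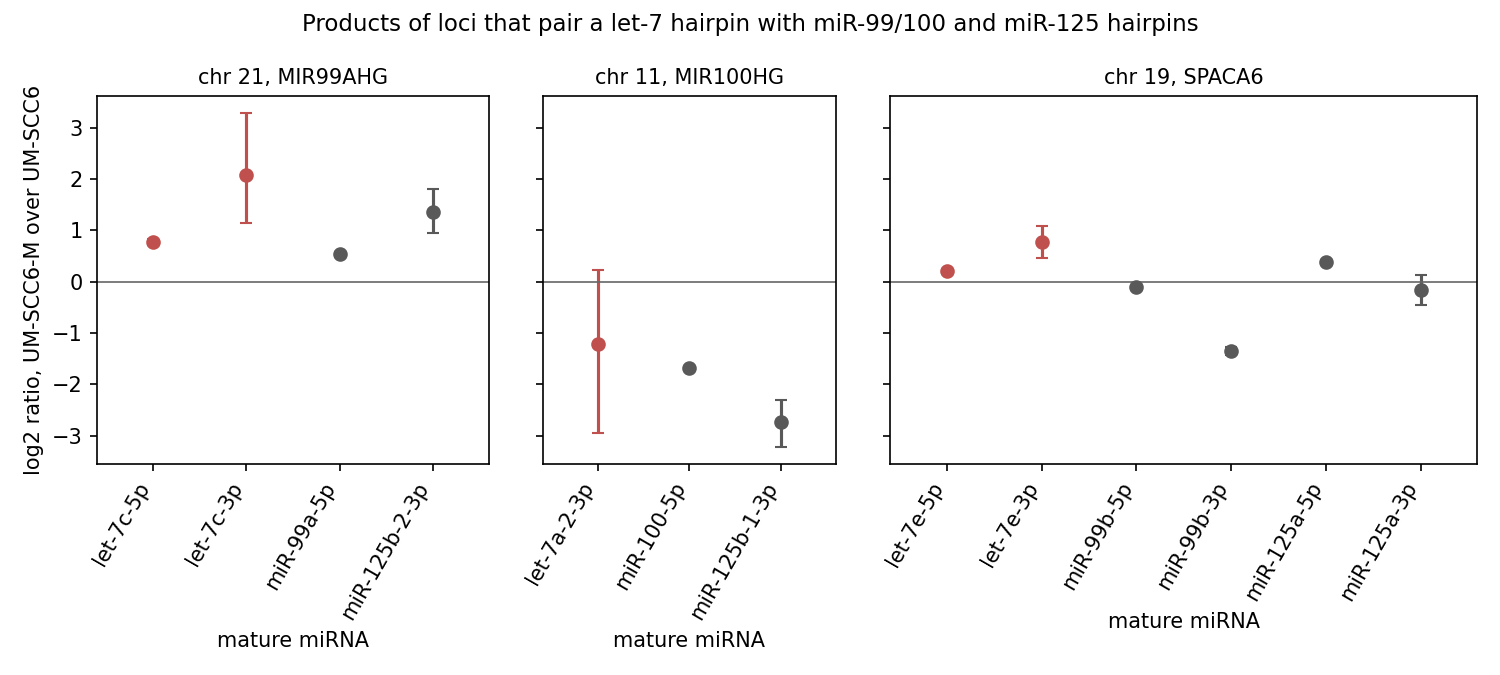
Log2 ratio (UM-SCC6-M over UM-SCC6) with exact 95% counting intervals for the products particular to the chromosome 21, chromosome 11 and chromosome 19 loci, let-7 products in red and neighbours in grey. miR-99a-3p and miR-100-3p, whose reads are not known in both libraries, are not plotted. The 4 plotted products on chromosome 21 lie above 0, the 3 on chromosome 11 lie below 0 with the interval of let-7a-2-3p reaching 0.23, and those on chromosome 19 lie on both sides.

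miRNAs with ratios like those of the extreme members were sought among the 70 at 1000 or more normalized reads, by the gap in log2 ratio over the 2 libraries. Nearest to let-7i-5p were miR-222-3p at -0.54, miR-101-3p at -0.46 and miR-3529-3p at -0.42, whose reads were nearly the same as those of miR-7-5p, a name with the complementary sequence. Nearest to let-7b-5p were miR-28-3p at 1.05, miR-92a-3p at 0.80 and miR-23a-3p at 0.74. With 2 libraries this likeness is 1 number per miRNA.

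Markers of cell identity were read beside these values. The 6 epithelial and squamous miRNAs with an entry summed to 19717 normalized reads in UM-SCC6-M and 16443 in the parental library. miR-141-3p and miR-205-5p were also on the list and are not among these entries, so the sum is not a full epithelial panel. miR-200b-3p held most of each sum and was higher in UM-SCC6-M, at a log2 ratio of 0.45, whereas miR-200a-3p was at -0.99. miR-429 (-0.09) and miR-31-5p (-0.07) were near even, and miR-200c-3p and miR-203a-3p were below 3 normalized reads in both. A marker listed at 0 can still have had reads, since values below 1 are listed as 0 and the smallest listed values stand for 9 and 8 reads. Fibroblast markers summed to 113.1 and 64.6 normalized reads in the same order over 7 entries, with miR-127-3p, miR-145-5p and miR-214-3p listed at 0 in both. Most of that came from miR-199b-5p (1.05), while miR-143-3p (-1.34) and miR-199a-5p (-3.32) went the other way at very low levels. miR-143-3p had 4.06 normalized reads in UM-SCC6-M and 10.4 in the parental library. miR-199a-5p was listed at 0 in UM-SCC6-M and at 1.73 in the parental library. Endothelial markers, the arms of miR-126, summed to 550.5 and 986.1, and these arms went opposite ways (-0.90 for the 3p arm, 0.78 for the 5p arm). Blood markers summed to 17.9 and 24.6 over 4 entries, with miR-142-3p, miR-142-5p and miR-451a listed at 0 in both. miR-223-3p and miR-144-3p, on the same list, are not among these entries. The part of such differences in the let-7 values was not tested.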

How the data were processed

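Per the labels' protocols, adaptors were ligated to small RNAs in 3 µg of input RNA, with fragments of 140 to 160 bp cut from a gel. Bowtie is named without a version in the submitters' processing notes. The sources used here do not give the genome build, miRNA database, counting or scaling. The authors deposited 1 table with a read signal per library, scaled so that libraries can be compared. The log2 fold change, p-value and q-value columns are the authors' own comparison, per the file headers, and made no call here.

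Values above 0 came in whole multiples of a fixed step (0.119 in UM-SCC6-M, 0.133 in UM-SCC6), within 7.16e-05 reads. The step was taken as the worth of 1 read, which no source states, and every read count and interval rests on it. For a value listed as 0 the reads followed from the other library and the deposited log2 fold change, whole within 0.00023 reads. The smallest listed values stand for 9 and 8 reads. Log2 ratios have 0.5 reads added to each library. Intervals are Clopper-Pearson at 95%, converted to ratios. Members at 2-fold or 1.5-fold were counted by size, with no test. The members and lists were chosen with earlier results of these data known. The miRNAs named are the 10 members, other let-7 and miR-98 arms, their locus neighbours, cell type markers, and the 3 nearest in ratio to let-7i-5p and to let-7b-5p, and miR-21-5p and miR-7-5p beside them after their values were seen. Sequences and hairpin positions are from RefSeq (GRCh38.p14), and host genes from GENCODE release 29. The code was tested on simulated data. Alternatives were 4 other scalings, 5 added reads, the deposited fold changes, other floors and other denominators. Python 3.11.15 with numpy 2.4.6, pandas 2.3.3, scipy 1.17.1 and matplotlib 3.10.9 was used.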

Additional observations from a re-analysis of the deposited data

How the results depend on the processing

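Every log2 ratio moved by the same amount under another scaling, from -0.04 with the trimmed mean of M-values to 0.24 with total reads. The sign of all 10 members held under the 4 scalings, and 8 of 9 5p members stayed above 0. The share of all miRNAs above 0 under these scalings is not given here. Only the trimmed mean moved the ratios down, so the scalings were a weak check of the positive signs. The summed 5p log2 ratio of -0.11 became 0.13 with total reads, -0.081 with the median of ratios, -0.15 with the trimmed mean and -0.0097 with totals that leave out the 10 most abundant miRNAs. Without let-7i-5p it was 0.17. The median of 0.37 became 0.61 with total reads, 0.33 with the trimmed mean and 0.47 without the 10 most abundant. It was 0.18 when members linked through pairs 1 base apart were summed first. The count at 1.5-fold, 2 of 9 against 43.6% of all miRNAs at the floor, became 5 against 49.2% with total reads. The count at 2-fold, 0 against 20.1%, became 2 against 23.5% with total reads. Without the 10 most abundant the counts were 4 at 1.5-fold and 1 at 2-fold. With the median of ratios 3 members were 1.5-fold apart. For these last scalings the share over all miRNAs is not given, so their counts are not read as results about the members. The family's share of reads, 20.4% in UM-SCC6-M and 18.6% in the parental library, was 37.7% and 33.1% with miR-21-5p left out of the denominator, and 20.8% and 18.9% with 1 name per opposite-strand pair. With the 3p arms added, a setting chosen after seeing the data, let-7i-5p held 35.7% of the family in UM-SCC6-M and 47.2% in the parental library. At a floor of 1000 normalized reads, 14.3% of all miRNAs were 2-fold apart and 34.3% were 1.5-fold apart. Adding 5 reads or taking the deposited fold changes changed neither the median nor the count at 1.5-fold. No paired analysis was possible because each group has 1 library. At this depth counting error is small for the 5p members, and the spread between cultures is unknown.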
